A study of Mus musculus with 8 samples.

Results

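Glutathione S-transferases (GSTs) are the enzymes that join glutathione to electrophilic compounds, and 10 of their genes were followed here in Hepa-1 cells, a mouse hepatoma line, exposed to hexavalent chromium, Cr(VI). The 10 genes were listed by symbol, with earlier results of these data known, from 23403 genes with a read count. Gsta4, Gstm1, Gstm2, Gstp1, Gstt1, Gsto1, Gstk1 and Gstz1 encode soluble transferases of the alpha, mu, pi, theta, omega, kappa and zeta classes. Mgst1 and Mgst3 encode membrane-bound transferases of the MAPEG family. RNA-seq was made from 2 libraries after 90 minutes in 25 µM Cr(VI) (as CrK2O4) and from 2 control libraries, labelled with neither an exposure time nor the regimen they belong to. Formaldehyde-assisted isolation of regulatory elements (FAIRE), which recovers DNA that is not bound by histones, was made after the same treatment, after 20 passages with Cr(VI) at 0.5 µM, and from a control for each, with 1 library per condition. All libraries came from the same cell line, and the labels number the RNA-seq libraries 1 and 2 without saying whether they came from separate cultures, so that p-values measure only the spread between these libraries.

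In the first phase of detoxification a compound is made reactive, and GSTs act in the phase that follows, in which glutathione is added to it so that it can be exported and trimmed to a mercapturate. Liver is rich in these enzymes. Many GST genes are known targets of NRF2, the factor that binds the antioxidant response element, and some are known targets of the aryl hydrocarbon receptor, which binds the xenobiotic response element. Several classes lie in clusters of genes that arose by duplication, so that a short read can match more than 1 of them.

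The near-identical copies come first, because they set which of the 10 genes can be read on their own. Every 50-base stretch of each annotated transcript, the length of the reads, was looked up in the mouse genome (GRCm38.p6, the same build as mm10) and in all annotated transcripts. Gsta4, Gstt1, Gsto1, Gstk1, Mgst1 and Mgst3 had no exact copy of any stretch elsewhere, and 100% of their stretches were unique. Gstz1 had 82.5% unique stretches, and the stretches it shared, 379 of 2161, lay in its overlap with Pomt2 on the opposite strand. Gstm1 had 71.0% and Gstm2 54.9%. Gstp1 had 31.4%, the lowest share of the 10.

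The pi-class genes Gstp1 (chromosome 19, 4035411 to 4037912, minus strand) and Gstp2 (4040288 to 4042221, minus strand) stand side by side, and their coding sequences differed at 12 of 633 positions. Positions 331 to 633, a run of 303 bases, were identical. A first stretch of 60 coding bases is printed below because it holds 6 of the 12 differences, which are in capitals.
Gstp1: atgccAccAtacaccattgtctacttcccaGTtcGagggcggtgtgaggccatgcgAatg
Gstp2: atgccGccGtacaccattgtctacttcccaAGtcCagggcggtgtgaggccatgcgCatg
Reads from such a stretch can be told apart by a few bases only, and reads from the identical run cannot. A pseudogene, Gstp-ps, which lies within the span of Traf5 and is not among the genes with a read count, shared 59.6% of the Gstp1 stretches.

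The mu-class genes lie in a cluster on chromosome 3. Gstm1 (108012250 to 108017973, minus strand) shared 22.7% of its 50-base stretches with the pseudogene Gstm2-ps1, 10.1% with Gstm3 and 6.49% with Gm8834. Gstm2 (107981702 to 107986420, minus strand) shared 45.1% with the span of Wdr33, 36.9% with the copy Gm6665 inside that span, and 6.72% with Gstm4. Gstm2-ps1, Gm8834 and Gm6665 are not among the genes with a read count. When up to 2 mismatches in transcripts of other GST genes and pseudogenes counted as a copy, the share without a copy was 32.9% for Gstm1, 33.7% for Gstm2 and 18.8% for Gstp1, while it was 100% for the other 7 genes. Those of the 10 genes outside the alpha, mu and pi classes lie apart from each other: Gstt1 on chromosome 10 (75783813 to 75798584, minus strand), Gsto1 on chromosome 19 (47854973 to 47864790, plus strand), Gstk1 on chromosome 6 (42245935 to 42250441, plus strand), Gstz1 on chromosome 12 (87147161 to 87164723, plus strand), Mgst1 on chromosome 6 (138140527 to 138156755, plus strand) and Mgst3 on chromosome 1 (167371966 to 167393841, minus strand). Other genes of their classes lie close to Gstt1 and Gsto1, such as Gstt3 (75774117 to 75781422) and Gsto2 (47865438 to 47886308). How reads with several matches were counted is not given in the sources used here, so the values of Gstm1, Gstm2 and Gstp1 are uncertain in how reads were split between copies. Whether the strand was used is not given either, so reads of Gstz1 and Pomt2 in their overlap cannot be told apart.

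**Figure D1:**
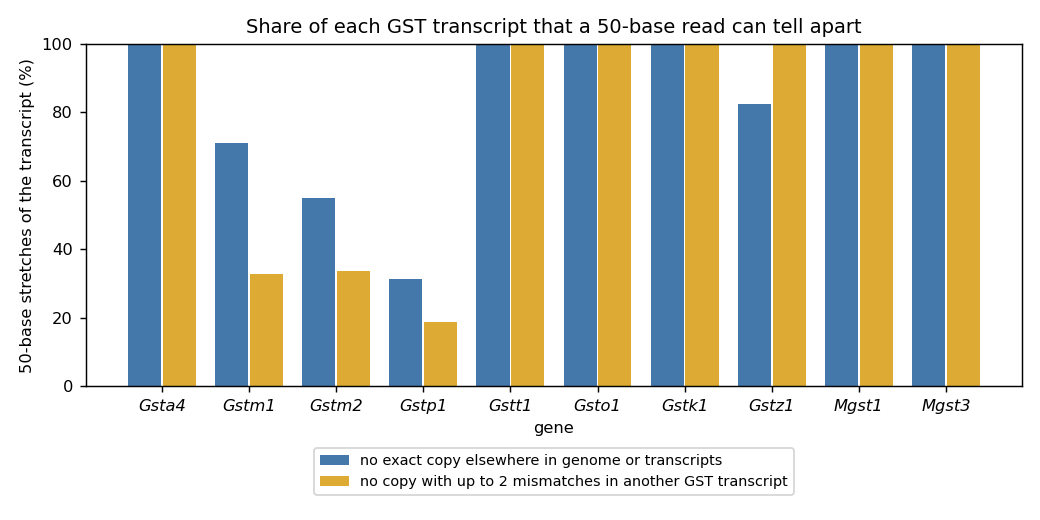
Share of the 50-base stretches of each gene's annotated transcripts, in percent, with no exact copy elsewhere in the genome or in transcripts (blue) and with no copy of up to 2 mismatches in transcripts of other GST genes and pseudogenes (yellow). Gstm1, Gstm2 and Gstp1 fell to 32.9%, 33.7% and 18.8% by the second measure, and the overlap of Gstz1 with Pomt2 shows only in the first.

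The RNA-seq libraries held between 32319676 and 37696116 reads on genes. The 2 treated libraries were less alike (Pearson r = 0.972 across genes on the log2 scale, with 1478 genes over 2-fold apart) than the 2 controls (r = 0.997, 130 genes). Of 13619 genes that passed the filter on low counts, 631 (4.63%) passed a threshold of 0.05 on the adjusted p-value (quasi-likelihood test of edgeR), 243 (1.78%) higher and 388 (2.85%) lower. Of the hepatocyte markers checked, Alb and Trf were abundant (904 to 3665 and 1094 to 2075 CPM, the read count scaled to a TMM-adjusted library of 1000000 reads). Apoa1 and Hnf4a, picked after their values were seen, stayed at or below 0.518 CPM. Alb (log2 fold change 1.96) and Ttr (2.46) were higher in treated cells, as 2 of 9 hepatocyte markers tested, and so were Dcn (1.16), 1 of 5 fibroblast markers, and Pecam1 (2.03), 1 of 2 endothelial markers. None of the 4 leukocyte and 4 cholangiocyte markers tested passed edgeR's threshold. Of these, 2 and 2 had an unadjusted p under 0.05 (edgeR), as did 30.7% of all genes tested. DESeq2 called 0 and 2, where it called 15.2% of all genes tested. Among the hepatocyte markers DESeq2 called Trf (log2 fold change 0.69) and Apoa2 (1.66) besides Alb and Ttr. The summed level of the hepatocyte markers was 5322 and 5891 CPM in treated and 2220 and 2283 CPM in control libraries, and that of the fibroblast markers was 1287 and 1414 against 701 and 713 CPM. It was 114 and 107 against 119 and 122 CPM for leukocyte, 2.60 and 2.73 against 0.978 and 1.23 CPM for endothelial, and 980 and 1305 against 1502 and 1553 CPM for cholangiocyte markers. Ptprc, Cdh5, Thy1 and Epcam, picked from these lists after their values were seen, stayed at or below 0.0863 CPM. They do not speak for the other members of their lists. The part of these marker differences in the GST results was not tested.

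All 10 GST genes had reads in every library and passed the filter. Together they took 0.141% and 0.144% of the reads of the control libraries and 0.169% and 0.190% of those of the treated libraries. Levels between genes are compared as TMM-scaled CPM per kilobase of annotated exon. In control cells this level ran, as mean ± SD (n = 2), from 539 ± 6.24 for Gsto1 over 381 ± 10.5 for Gstp1, 121 ± 3.87 for Mgst1, 107 ± 1.44 for Gstm1, 67.3 ± 1.21 for Gstm2, 24.8 ± 0.256 for Gsta4, 20.0 ± 0.223 for Mgst3, 9.30 ± 0.957 for Gstk1 and 5.13 ± 0.0540 for Gstz1 down to 0.362 ± 0.0476 for Gstt1. No neighbours in this order overlapped between the control libraries. In treated cells Gstp1 (592 ± 163) and Gsto1 (546 ± 133) overlapped, Gstm1 (305 ± 21.8) stood above Mgst1 (126 ± 3.91), and Mgst3 (20.5 ± 4.47) overlapped with Gstk1 (14.7 ± 4.32). By this measure Gsto1, Gstp1 and Mgst1 were the most abundant GST transcripts of the 10 in control cells, and the theta-class transcript of Gstt1 was the scarcest. The measure divides by full exon length, while 31.4% of Gstp1, 71.0% of Gstm1 and 54.9% of Gstm2 stretches were unique. The places of these genes in either order therefore depend on how reads with several matches were counted.

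**Figure D2:**
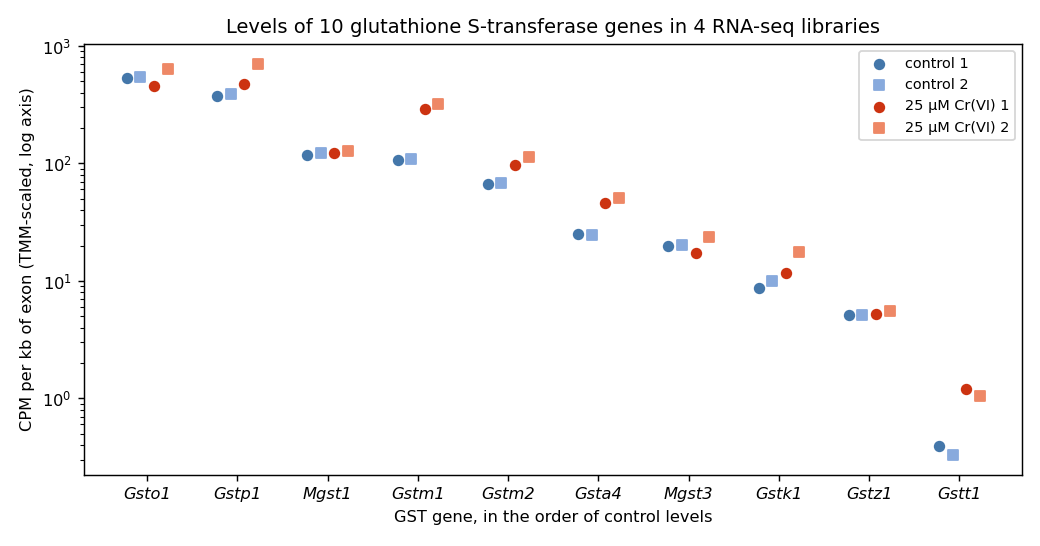
Level of each of the 10 GST genes in the 4 RNA-seq libraries, as TMM-scaled CPM per kilobase of exon on a log axis, in the order of the control means. Circles are replicate 1 and squares replicate 2 of control (blue) and 25 µM Cr(VI) (red) cells; the treated points of Gstm1, Gsta4, Gstm2 and Gstt1 stand above the controls, and those of Gsto1 and Mgst3 lie on both sides.

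Of the 10 genes, 2 rose at 25 µM Cr(VI), Gstm1 and Gsta4, and none fell, against 1.78% of all genes tested that rose. The median log2 fold change of the 10 genes was 0.64, where that of all genes tested was -0.0047. It was 0.32 without treated replicate 2 and 0.83 without treated replicate 1. In 7 of 10 genes both treated libraries stood above both controls, as they did in 32.2% of all genes tested, and 5 of 10 had an unadjusted p under 0.05, as did 30.7% of all genes. DESeq2 called 3 of 10, Gstm1, Gsta4 and Gstm2, where it called 15.2% of all genes.

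Gstm1, a mu-class enzyme that conjugates many aromatic electrophiles, had 13441 and 12733 reads in the treated and 5075 and 5817 reads in the control libraries. These were 397 and 439 CPM against 146 and 149 CPM, so both treated libraries stood far above both controls. The fold change was 2.84, with a log2 value of 1.51 ± 0.13 (SE; 95% interval 1.17 to 1.84) and an adjusted p-value of 0.0282 (edgeR). Gstm1 took 10.8% and 10.7% of the reads of the 10 genes in control cells and 24.2% and 20.7% in treated cells. The call was kept under other normalizations, without the filter and with DESeq2. It was lost without control replicate 1 or control replicate 2, where the log2 fold change was 1.47 and 1.499. A fit without a treated library leaves 1, which is assumed to vary like the 2 controls, so a call there says little.

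Gsta4 (chromosome 9, 78191966 to 78209349, plus strand), an alpha-class enzyme known for conjugating aldehydes from lipid peroxidation, had 1480 and 1412 reads in treated libraries and 831 and 921 in controls. At 43.7 and 48.7 CPM against 23.9 and 23.5 CPM, its groups did not overlap either. Its fold change was 1.95 (log2 0.96 ± 0.12 SE; 95% interval 0.63 to 1.30; adjusted p = 0.0391, edgeR). All of its 50-base stretches were unique. The call was lost without control replicate 1 (adjusted p = 0.313) or replicate 2 (0.328), and with no normalization beyond library size (0.0541), where the median log2 fold change of all genes was -0.11 and that of Gsta4 was 0.84.

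Gstm2, a further mu-class enzyme, had 3365 and 3367 reads in treated libraries and 2382 and 2748 in controls, that is 99.4 and 116 CPM against 68.5 and 70.3 CPM. The groups did not overlap, and the log2 fold change was 0.64 (95% interval 0.30 to 0.97), with an adjusted p of 0.0654 in edgeR and 0.0207 in DESeq2. Gstt1, a theta-class enzyme that acts on small halogenated compounds, had only 44 and 33 reads in treated libraries and 15 and 14 in controls, or 1.30 and 1.14 CPM against 0.431 and 0.358 CPM. Its fitted log2 fold change, 1.62 (95% interval 0.80 to 2.44; adjusted p = 0.0619, edgeR), was the largest of the 10 and had the widest interval. Its treated and control libraries did not overlap.

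Gstp1, the pi-class enzyme that is abundant in many tumours, had 12010 and 15249 reads in treated libraries and 9673 and 11312 in controls. At 355 and 526 CPM against 278 and 289 CPM, the treated libraries were higher but far apart, and the log2 fold change of 0.635 (95% interval 0.03 to 1.24) had an adjusted p of 0.152 (edgeR). Gstk1, the kappa-class enzyme of mitochondria and peroxisomes, had the same shape at 10.8 and 16.5 CPM against 8.02 and 9.28 CPM (log2 fold change 0.66, 95% interval -0.05 to 1.37, adjusted p = 0.183). In both genes treated replicate 2 was the higher of the treated pair.

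The remaining 4 genes had fold changes near 1. Gsto1, an omega-class enzyme that reduces dehydroascorbate, read 533 and 755 CPM in treated and 630.0 and 640.4 CPM in control libraries, with 1 treated library below and 1 above both controls. Its log2 fold change was 0.02 (95% interval -0.56 to 0.60). Gstz1, which isomerizes maleylacetoacetate in the breakdown of tyrosine, read 11.3 and 11.9 against 11.2 and 11.02 CPM (0.07, -0.34 to 0.48). Mgst1, a membrane transferase that also reduces lipid peroxides, read 173 and 180.5 against 166 and 173 CPM (0.06, -0.23 to 0.35), and its interval was the narrowest of the 4. Mgst3 read 19.1 and 25.99 against 21.8 and 22.1 CPM (0.04, -0.49 to 0.56), again with treated libraries on both sides of the controls. Adjusted p-values of these 4 genes ran from 0.738 to 0.959 (edgeR), and with no normalization beyond library size all 4 values turned negative, to between -0.11 and -0.05. The intervals left room for changes of up to 1.27-fold for Mgst1 and 1.51-fold for Gsto1.

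**Figure D3:**
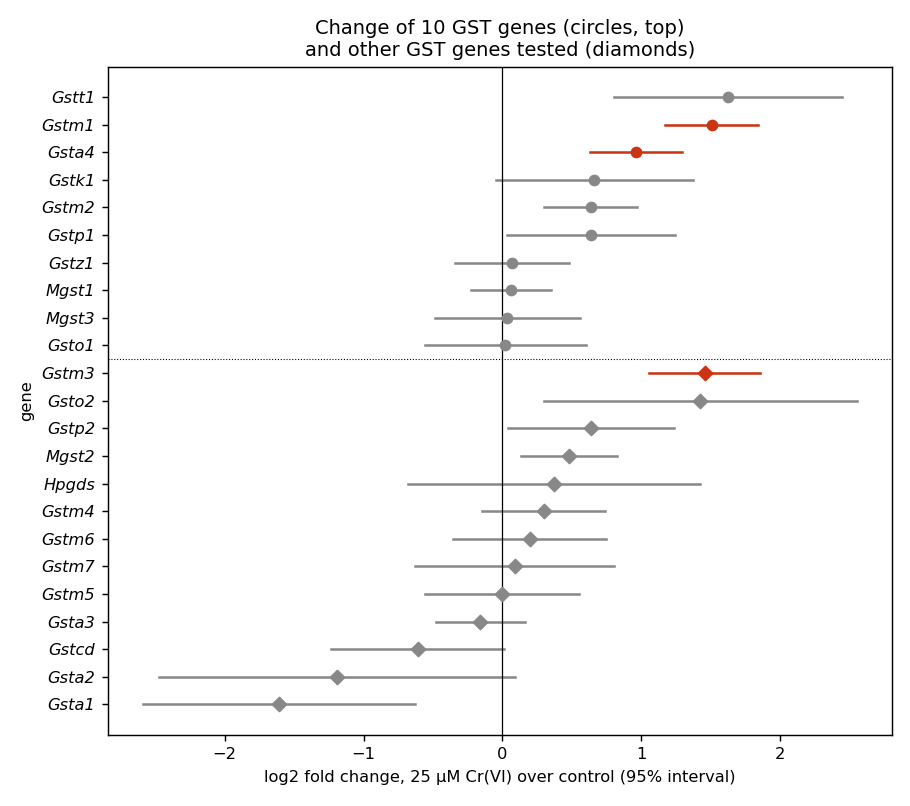
Log2 fold change of the 10 GST genes (circles, above the dotted line) and of 13 other GST genes that were tested (diamonds), 25 µM Cr(VI) over control, with 95% intervals of the edgeR fit. Red marks an adjusted p-value under 0.05, which Gstm1, Gsta4 and Gstm3 reached, at 1.51, 0.96 and 1.45.

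Among the other GST genes, 17 of 18 listed were found in the count table and 13 passed the filter. Of these, 1 was called, Gstm3, beside 4.63% of all genes tested, and the median log2 fold change was 0.19. DESeq2 also called Gsto2. Gstm3, a mu-class neighbour of Gstm1, had 1479 and 1520 reads in treated libraries and 597 and 700 in controls (43.7 and 52.5 against 17.2 and 17.9 CPM; log2 fold change 1.45 ± 0.15 SE, adjusted p = 0.0317, edgeR). It lost its call without control replicate 1 (0.0651) or replicate 2 (0.0513). The share of Gstm1 in the reads of Gstm1 and Gstm3 together was 90.1% and 89.3% in treated libraries and 89.5% and 89.3% in controls, with 95% Wilson intervals that span 88.5% to 90.6% and cover counting error only. Of the 50-base stretches of Gstm3, 68.5% were unique and 10.8% were shared with Gstm1, and with up to 2 mismatches 24.6% had a copy in Gstm1, so the fold changes of these genes may not be independent of each other. In the pair of Gstm1 and Gstm2 the share of Gstm1 was 80.0% and 79.1% in treated cells and 68.1% and 67.9% in controls, so the groups were apart by more than their intervals.

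The counts of the pi-class pair kept 1 ratio in all 4 libraries. Gstp2 read 246 and 367 CPM in treated and 194 and 201 CPM in control libraries, with a log2 fold change of 0.635 (adjusted p = 0.151, edgeR) beside 0.635 for Gstp1. Gstp1 took 59.1% and 58.9% of the reads of the pair in treated libraries and 58.9% and 59.0% in controls, within 95% Wilson intervals of 58.2% to 59.7%. The 4 shares differed by less than their counting intervals. With 68.6% of the Gstp1 stretches shared with Gstp2, the fold changes of these genes may not be independent of each other.

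**Figure D4:**
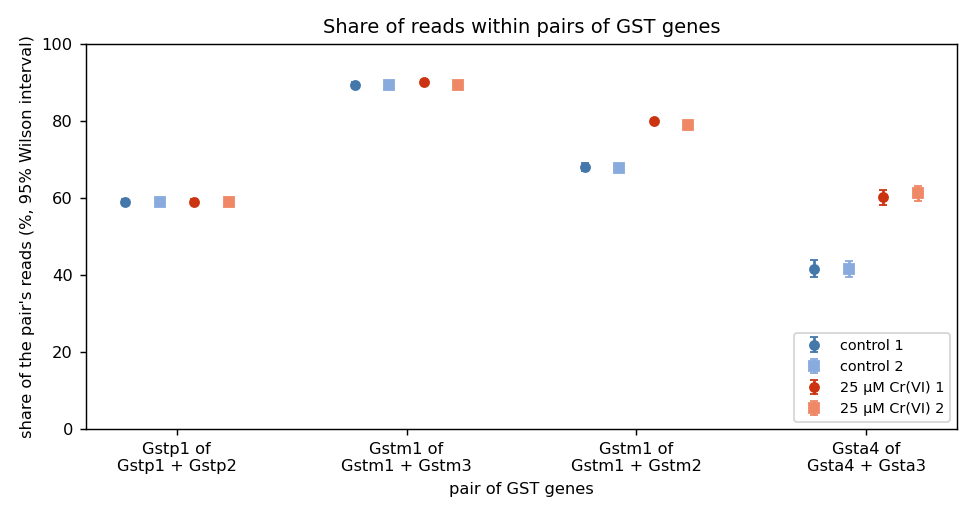
Share, in percent, of the reads of a pair of GST genes that were counted on the first gene, in each RNA-seq library, with 95% Wilson intervals that cover counting error only. The share stayed near 59% for Gstp1 beside Gstp2 and between 89.3% and 90.1% for Gstm1 beside Gstm3, and it was higher in treated than in control libraries for Gstm1 beside Gstm2 and for Gsta4 beside Gsta3.

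The other alpha-class genes are set beside Gsta4 here. Gsta3, which also takes part in steroid isomerization, read 28.9 and 30.8 CPM in treated and 33.5 and 33.1 CPM in control libraries (log2 fold change -0.16, adjusted p = 0.413, edgeR), and the share of Gsta4 in the reads of both was 60.2% and 61.3% in treated against 41.6% and 41.6% in control libraries. Gsta1 and Gsta2 were scarce, at 0.173 to 0.665 and 0.236 to 0.767 CPM, with fitted log2 fold changes of -1.61 (adjusted p = 0.0816) and -1.19 (0.183). These genes had 8.74% and 34.6% unique stretches and have close copies in Gm3776 and Gm10639. Both copies are among the genes with a read count, and Gm3776 shared 84.4% of the Gsta1 stretches. The values of Gsta1 and Gsta2 therefore depend on how reads with several matches were counted. A test of the difference between Gsta4 and the other alpha-class genes was not made.

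Gsto2, the second omega-class gene, read 4.93 and 10.5 CPM in treated and 2.65 and 3.07 CPM in control libraries (log2 fold change 1.42, adjusted p = 0.118 in edgeR and 0.0135 in DESeq2). Mgst2, a membrane transferase that can also make leukotriene conjugates, read 36.2 and 39.2 against 25.8 and 28.3 CPM (0.48, 0.102). Gstcd, a protein with a GST C-terminal domain, read 31.6 and 20.8 against 40.8 and 39.2 CPM (-0.61, 0.169). Gstm4, Gstm5, Gstm6, Gstm7 and Hpgds, the hematopoietic prostaglandin D synthase, had log2 fold changes between -0.0043 and 0.37, and adjusted p-values from 0.292 to 0.991 (edgeR). Gstp3, Gstt2 and Gstt3 had at most 7 reads in any library and were not tested. Gstt4 had 0 reads in all 4 libraries, which allows a level of up to 0.0767 to 0.104 CPM.

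Sequence upstream of the start sites is shown for Gstm1 and Gstm3, the mu-class genes that were called, and was read from RefSeq promoter windows of GRCm38.p6, of which 250 bases before the start are printed. Windows of 250 bases before to 50 after a start were searched on both strands for TGACNNNGC, the core of the antioxidant response element, TGANTCA, the AP-1 element, and GCGTG, the core of the xenobiotic response element. An AP-1 element that begins TGAC and runs on into GC would count for both of the first motifs. Windows were found for 9 of the 10 genes, all but Gsta4. In capitals is the GCGTG match of Gstm1, which begins 76 bases before the upstream start of this gene. The Gstm1 stretch lies at chr3:108017974-108018223 and the Gstm3 stretch at chr3:107969175-107969424, both on the minus strand.
Gstm1: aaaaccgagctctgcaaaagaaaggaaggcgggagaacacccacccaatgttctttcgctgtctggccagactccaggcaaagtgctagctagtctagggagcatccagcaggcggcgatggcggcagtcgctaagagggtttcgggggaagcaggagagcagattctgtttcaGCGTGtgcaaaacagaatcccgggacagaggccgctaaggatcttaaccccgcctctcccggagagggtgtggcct
Gstm3: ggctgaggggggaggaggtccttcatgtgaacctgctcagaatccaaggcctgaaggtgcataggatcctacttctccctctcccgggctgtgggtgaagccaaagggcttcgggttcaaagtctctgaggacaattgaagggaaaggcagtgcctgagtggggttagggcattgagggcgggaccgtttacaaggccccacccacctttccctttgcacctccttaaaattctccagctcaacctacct
The Gstm3 window held none of the motifs. Of all 32851 windows, 12.4% held TGACNNNGC, 7.81% TGANTCA and 32.4% GCGTG. Among the 10 genes, TGACNNNGC was found in Mgst1 at position -56 only, and TGANTCA in Gstp1 at -74 only. GCGTG was found in Gstm1, in Gstp1 at -13 and in Mgst3 at -22. A match is a match of letters and does not show binding.

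The pi-class pair is shown in the same way because its windows share the AP-1 match, at -74 in Gstp1 and at -89 in Gstp2, in capitals with the GCGTG of Gstp1. The stretches lie at chr19:4037913-4038162 for Gstp1 and chr19:4042222-4042471 for Gstp2, on the minus strand.
Gstp1: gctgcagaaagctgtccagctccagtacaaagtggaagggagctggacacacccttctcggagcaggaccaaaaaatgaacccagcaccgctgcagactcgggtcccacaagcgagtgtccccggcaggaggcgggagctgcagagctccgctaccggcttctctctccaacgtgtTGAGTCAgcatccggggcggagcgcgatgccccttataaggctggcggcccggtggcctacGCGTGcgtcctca
Gstp2: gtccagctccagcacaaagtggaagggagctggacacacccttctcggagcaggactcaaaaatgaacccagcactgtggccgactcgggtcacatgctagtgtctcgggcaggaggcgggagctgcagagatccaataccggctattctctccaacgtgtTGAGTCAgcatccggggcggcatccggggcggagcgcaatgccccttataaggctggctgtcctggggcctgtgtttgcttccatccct
Both stretches hold the run TGAGTCA in the direction of transcription.

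FAIRE peaks of the treated cells were then set against the start sites of the 10 genes, within the lists used here, which hold 2945 peaks at 25 µM and 860 peaks at 0.5 µM from the authors' MACS calls. Peaks outside these lists were not analysed here. A site equally open in treated and control cells would not be listed, nor would one that closed with Cr(VI). The paper also reports such closed sites, and slightly more opened ones than these lists hold. The centre of no listed peak lay within 1000 bp of a start site of any of the 10 genes in either list, and with 1 library per condition this has no replicate check. The share of all genes with such a peak was not computed, so this is not read as a trait of the 10 genes. At 25 µM the nearest peak to Gstm2 was 4188 bp from its start, inside the gene, and those nearest to Gstm1, Gsto1 and Gstk1 were 14392, 47766 and 51594 bp away. For the other 6 genes the distance was 124376 bp (Mgst3) or more. At 0.5 µM the nearest peak to any of the 10 was 706628 bp from Gstk1.

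The mu-class cluster held 3 peaks of the 25 µM list within 5000 bp of a GST gene, and they are printed because this cluster holds 2 of the genes that rose, Gstm1 and Gstm3. Each lay in an intron, and all of their 50-base stretches were unique in the genome. The peak in Gstm2, chr3:107982203-107982261, had a score of 60.87, MACS's p-value on the negative log10 scale, times 10. Those at chr3:108032321-108032409 (score 55.34) and chr3:108034379-108034450 (61.23) lay in Gstm4 and Gm36498. The sequences are given on the plus strand of GRCm38.p6.
Gstm2 peak: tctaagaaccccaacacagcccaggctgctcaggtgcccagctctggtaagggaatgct
first Gstm4 peak: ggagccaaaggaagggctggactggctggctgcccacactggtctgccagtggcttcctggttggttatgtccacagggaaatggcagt
second Gstm4 peak: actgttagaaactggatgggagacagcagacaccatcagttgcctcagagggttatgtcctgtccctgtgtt
None of these peaks held TGANTCA. Scores were close to the smallest in the list, 50, where the highest was 140.87. Gsta3 held a further peak in an intron, chr1:21244392-21244532 (score 56.17), 3877 bp from a start site, and this one held TGANTCA once.

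The rest of the glutathione pathway was followed through lists of genes around the GSTs. Of the relatives that share the GST fold or the MAPEG fold, 2 of 15 tested rose and none fell, beside 1.78% and 2.85% of all genes tested, with a median log2 fold change of 0.12. Both are enzymes or partners of eicosanoid synthesis. Ptges, the microsomal prostaglandin E synthase, read 10.2 and 13.2 CPM in treated and 2.73 and 3.35 CPM in control libraries (log2 fold change 1.94, adjusted p = 0.0365, edgeR). Alox5ap, the protein that presents arachidonate to lipoxygenase, read 12.2 and 8.90 against 3.16 and 2.68 CPM (1.85, 0.0405). The call of Ptges was lost without control replicate 1 (adjusted p = 0.104, edgeR), and that of Alox5ap without control replicate 1 (0.0751) or replicate 2 (0.134) and with no normalization beyond library size (0.0660). The translation elongation factor subunits Eef1g and Eef1b2, the most abundant of this list that did not pass in edgeR, had log2 fold changes of 0.66 (0.184) and 0.79 (0.130). DESeq2 called Ptges, Alox5ap, Eef1b2 (adjusted p = 0.0167) and Clic1, where it called 15.2% of all genes tested. Clic1, named after its values were seen, had a log2 fold change of 0.57 (adjusted p = 0.0418, DESeq2).

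Of the genes that supply and recycle glutathione, 1 of 16 tested rose and none fell in edgeR (median 0.098), beside 1.78% and 2.85% of all genes tested, and DESeq2 called 3 of 16, where it called 15.2% of all genes. This was Oplah, the oxoprolinase that returns glutamate to the cycle, at 3.40 and 4.28 CPM in treated and 1.12 and 1.28 CPM in control libraries (log2 fold change 1.67, adjusted p = 0.0478, edgeR). Its call was lost without control replicate 1 (0.375) or replicate 2 (0.285) and with no normalization beyond library size (0.0550). The other calls of DESeq2, named after their values were seen, were lower in treated cells: Chac1 and Ggct, which act on glutathione and on gamma-glutamyl dipeptides, had log2 fold changes of -1.63 and -0.97 in edgeR, with adjusted p-values of 0.144 and 0.0929 in edgeR and 0.0116 and 0.0452 in DESeq2. Slc7a11, the cystine transporter, read 293 and 345 against 313 and 323 CPM, and Idh1, which makes NADPH in the cytosol, 342 and 270.2 against 354 and 367 CPM, with log2 fold changes of 0.0030 (0.991) and -0.23 (0.384). Gclc and Gclm, the subunits of the enzyme that limits glutathione synthesis, were also chosen after their values were seen: they read 129.9 and 162 against 106 and 108 CPM, and 154 and 269 against 139 and 139.9 CPM, with adjusted p-values of 0.133 and 0.235 (edgeR).

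Of the genes for export of conjugates and their conversion to mercapturates, 1 of 13 tested rose and 1 fell (median 0.083), beside 1.78% and 2.85% of all genes tested. Anpep, aminopeptidase N, which can split the dipeptide left after the removal of glutamate, had the largest log2 fold change of all lists, 3.85 (adjusted p = 0.0439, edgeR), at low levels of 0.739 and 0.932 CPM in treated and 0.0863 and 0.0256 CPM in control libraries. These were 52 reads against 4, a scaled ratio of 15.3 with an exact 95% interval of 5.63 to 58.2 that covers counting error only, and the call was lost without control replicate 1 (adjusted p = 0.0962, edgeR) or replicate 2 (0.263). Abcc3, an exporter of organic anions and conjugates, fell from 68.3 and 68.4 CPM to 39.0 and 31.9 CPM (log2 fold change -0.95, adjusted p = 0.0465, edgeR). Its call was lost without control replicate 1 (0.214) or replicate 2 (0.217) and with no normalization beyond library size (0.0743). The exporters Abcc5 and Abcc2 read -0.39 (0.129) and -0.44 (0.355) on the log2 scale. DESeq2 called Anpep, Abcc3, Ggt6 and Ggt7, where it called 15.2% of all genes tested. Ggt6 and Ggt7, named after their values were seen, had log2 fold changes of 1.49 (adjusted p = 0.00984) and 0.81 (0.00391) in DESeq2.

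None of the 15 other glutathione-using enzymes tested passed edgeR's threshold, where 4 had an unadjusted p under 0.05 and DESeq2 called 4, beside 30.7% and 15.2% of all genes tested. Prdx6, a peroxiredoxin that uses glutathione, read 952 and 1317 CPM in treated and 680.5 and 689.6 CPM in control libraries (log2 fold change 0.73, adjusted p = 0.119 in edgeR and 0.0168 in DESeq2). Gpx4, the peroxidase of membrane lipids, read 451 and 579.7 against 434 and 457 CPM (0.21, 0.463). Gpx2 was picked after its values were seen: it read 0.916 and 3.83 CPM in treated and 27.9 and 28.7 CPM in control libraries, a fitted log2 fold change of -3.59 with an adjusted p of 0.0619 in edgeR and 2.35e-10 in DESeq2. The remaining DESeq2 calls, also named after their values were seen, were Gpx1, which was higher in treated cells, and Glrx, which was lower. Their log2 fold changes in DESeq2 were 1.19 (adjusted p = 0.000212) and -0.91 (0.0168).

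None of the 13 regulators of GST genes tested passed either in edgeR, where 5 had an unadjusted p under 0.05 and DESeq2 called 4 (Nfe2l2, Maff, Mafk and Ahr), beside 30.7% and 15.2% of all genes tested. The median log2 fold change was 0.22. Nfe2l2, which encodes NRF2, read 615 and 573 CPM in treated and 391 and 391 CPM in control libraries, without overlap (log2 fold change 0.60, adjusted p = 0.0763 in edgeR and 0.0120 in DESeq2). Nr3c1, the glucocorticoid receptor, read 213 and 144 against 192 and 182 CPM (-0.07, 0.856). These are transcript levels, and the activity of the factors was not measured.

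**Figure D5:**
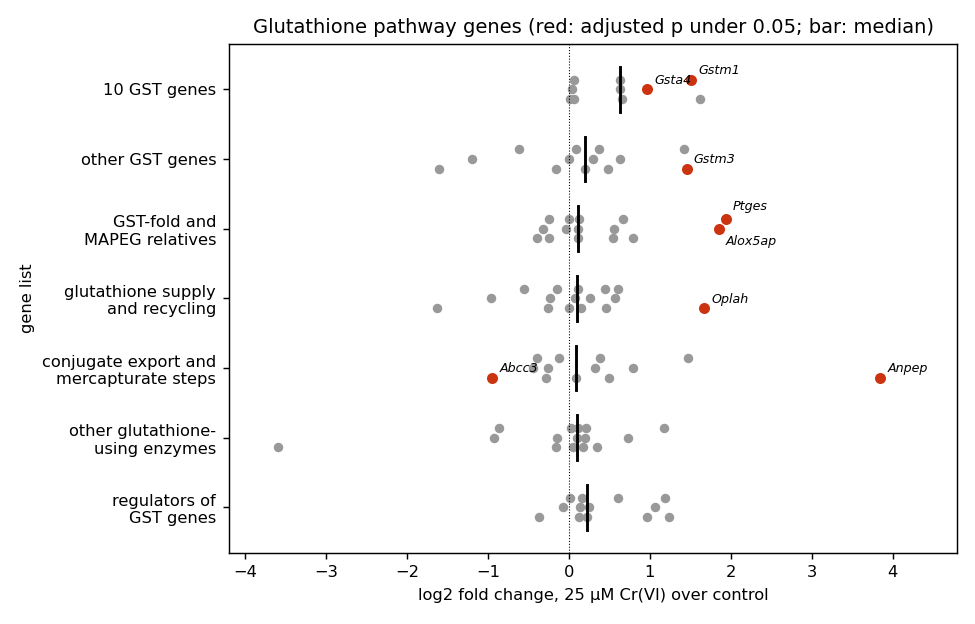
Log2 fold change, 25 µM Cr(VI) over control, of each gene tested in 7 lists of the glutathione pathway, 1 point per gene, with points set apart vertically for display only. Red points had an adjusted p-value under 0.05 (edgeR) and are named, and the bars are the medians, which lay at 0.64 for the 10 GST genes and between 0.083 and 0.22 for the other lists.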

How the data were processed

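RNA was measured in 2 treated and 2 control libraries of Hepa-1 cells and open chromatin in 4 FAIRE-seq libraries. The read counts per Entrez gene were deposited by the authors without normalization, from poly-A RNA read for 50 cycles and aligned to mm10 with TopHat. The counting tool and its annotation are not given in the sources used here. The peak score was deposited by the authors, who aligned FAIRE reads with BWA and called peaks with MACS's default settings, using the matching control. The peak lists give a score and no read counts, so no counting interval was computed for peaks. The submitters' processing notes also name CASAVA 1.8 and DESeq.

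Of 23403 gene IDs, 23305 matched RefSeq. Counts were tested with edgeR 4.0.16 (R 4.3.3): filterByExpr with a minimum count of 10, TMM factors of 1.03 and 0.897 (treated) and 1.04 and 1.04 (control), the quasi-likelihood F-test, two-sided, Benjamini-Hochberg adjustment over 13619 genes, threshold 0.05. The biological coefficient of variation was 0.193. Intervals use the total degrees of freedom of the fit, prior included. In data simulated for this comparison on 13619 genes, 45% of 2-fold and 95% of 4-fold changes were recovered. Every simulated gene and library had the same coefficient of variation, 0.193. The real treated libraries were less alike than the controls, so recovery in these data may differ. CPM divide by TMM-scaled library size, and lengths are the union of curated RefSeq exons. Exact 50-base stretches, FAIRE distances and motifs were computed in Python 3.11.15 on GRCm38.p6 with its RefSeq annotation.

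The 10 genes and all lists were chosen with earlier results of these data known. The rule named all 10 genes, every other GST gene with a read, of each further list the genes with an adjusted p under 0.05 (the 6 largest changes if more) and the 2 most abundant of the rest; others are named as chosen after their values were seen. Alternatives were no normalization beyond library size, DESeq2 size factors or upper-quartile scaling in edgeR, no filter, DESeq2 1.42.0, a replicate block, each library left out, wider FAIRE windows, a score of at least 100, distance from a peak's edge, stretches of 36 bases and the longest transcript as length; 2 mismatches and predicted exons were added after seeing the data.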

Additional observations from a re-analysis of the deposited data

How the results depend on the processing

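Each group had 2 libraries, so a single library carried much of the spread. Leaving out each library in turn moved the number of genes called from 631 to between 287 and 10995, where the high values came from fits with 1 treated library, which is assumed to vary like the 2 controls. The corresponding ranges were 0 to 9 for the 10 GST genes, 0 to 10 for the other GST genes, 0 to 11 for the relatives, 0 to 15 for glutathione supply, 0 to 11 for export, 1 to 14 for other glutathione-using enzymes and 0 to 10 for regulators, and 0.32 to 0.83 for the median of the 10 genes, which was lowest without treated replicate 2. With no normalization beyond library size the calls were 1 of the 10 GST genes, 1 relative, 0 of supply and 1 of export. DESeq2 called 2073 genes, 2 other GST genes, 4 relatives, 3 of supply, 4 of export, 4 glutathione-using enzymes and 4 regulators. Without the filter 2 glutathione-using enzymes were called. A window of 5000 bp held a 25 µM peak for 1 of the 10 genes and one of 50000 bp for 3, while 0 was kept at a score of 100, by the peak's edge, and in the 0.5 µM list at every window. Unique stretches were 85.6% over the 10 genes, 82.7% at 36 bases and 81.9% with 2 mismatches.

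Replicate numbers are shared between the groups, but with 2 pairs and a correlation of 0.0861 between the deviations of same-numbered libraries the numbers do not show a pairing. A replicate block raised the calls to 2969 genes, 4 of the 10 GST genes (Gstm1, Gsta4, Gstm2 and Gstt1), 5 other GST genes, 3 of supply, 4 of export, 3 glutathione-using enzymes and 3 regulators.

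Values near 0 turned sign. With no normalization Gsto1 went to -0.11, Gstz1 to -0.046, Mgst1 to -0.056, Mgst3 to -0.092, Gstm7 to -0.016 and Slc7a11 to -0.12. Without the filter Gsto1 went to -0.011 and Slc7a11 to -0.027, and with the replicate block to -0.0015 and -0.0014. Gstm5 went from -0.0043 to 0.0154 with DESeq2 size factors, 0.0190 with upper-quartile scaling and 0.0153 with DESeq2. With each library left out in turn, where the lowest and the highest value came from leaving out a treated library in each case, Gsto1 ran from -0.26 to 0.26, Mgst3 from -0.21 to 0.25, Gstm5 from -0.24 to 0.21, Gstm7 from -0.058 to 0.22, Slc7a11 from -0.12 to 0.13 and Nr3c1 from -0.37 to 0.19. The cause was not tested.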
